A study of Mus musculus with 6 samples.

Results

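Mitosis and spindle genes encode the proteins that carry a cell from the end of DNA synthesis through chromosome separation to the cut between the daughter cells. A set of 60 such genes was chosen by name, and 53 of them were measured here, out of 14860 genes that have a transcript cluster naming them alone. A transcript cluster is the group of array probes that covers 1 locus. For each gene the cluster with the highest mean over the arrays was taken. *Ccnb1*, *Kif14*, *Cenpf*, *Cenpi* and *Ncapg* had no cluster listed under their symbol (5 genes), and *Foxm1* and *Kif18b* appear only in clusters that list several entries (2 genes), so these are not part of the 53.

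RNA came from GFP+ cells sorted by FACS from the dorsal spinal cord of *Wnt1-cre*;*Rosa26mTmG* mouse embryos on embryonic days E10.5 and E11.5 and on day E12.5, with 2 arrays per stage and 6 in all. All 3 groups carry the same alleles: *Wnt1-cre* switches the membrane reporter from tdTomato to GFP in cells of the dorsal neural tube and in their descendants, so dividing progenitors, the neurons they produce and neural crest derivatives can all be GFP+, although the labels call the cells commissural neurons. The arrays of a stage are numbered replicate 1 and replicate 2, but whether they came from separate embryos or litters, and what arrays with the same number share, is not given in the sources used here. What the tests measure is thus the spread among these arrays, which may be technical.

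Dividing neural progenitors line the ventricle of the spinal cord, and neurons leave the cell cycle when they are born. In a cycling cell the mitotic genes are switched on late, in G2 and M phase, and they are kept silent in G1 and in cells that have left the cycle. Many of their promoters carry 2 short elements close to the transcript start. The cell cycle homology region (CHR) is bound by the MuvB complex, which silences these genes in the DREAM complex and activates them together with B-Myb and FoxM1. The CCAAT box is bound by NF-Y. Genes of the G1/S transition instead tend to carry E2F sites.

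To see how far the listed genes, measured or not, share this promoter architecture, their promoter windows were searched on both strands. A window ran from 250 bases before to 50 bases after each RefSeq transcript start (assembly GRCm38.p6). The letters were TTTGAA or TTCGAA for CHR, CCAAT for the CCAAT box, and TTTCGCGC, TTTGGCGC, TTCCCGCC or TTGGCGCC for E2F. TTCGAA reads the same on both strands, and the E2F words overlap one another, with each start position counted once. A window was available for 51 of the 60 genes (56 windows, since 4 genes have more than 1). CHR letters were found in the windows of 38 of the 51 genes (74.5%; 73.2% of their windows), against 19.2% of all 32851 windows in the table. CCAAT was found for 37 of 51 genes (72.5%), against 37.4% of all windows, and 2 or more CCAAT for 24 of 51 (47.1%), against 11.7%. Both elements together were found for 32 of 51 genes (62.7%), against 7.5% of all windows. E2F letters were found for 4 of 51 (7.8%), against 3.5%. For 34 genes the CHR letters began within 50 bases of the start. The median first base was at -12 for CHR and at -65 for CCAAT, counted from the first transcribed base as position 1.

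**Figure D1:**
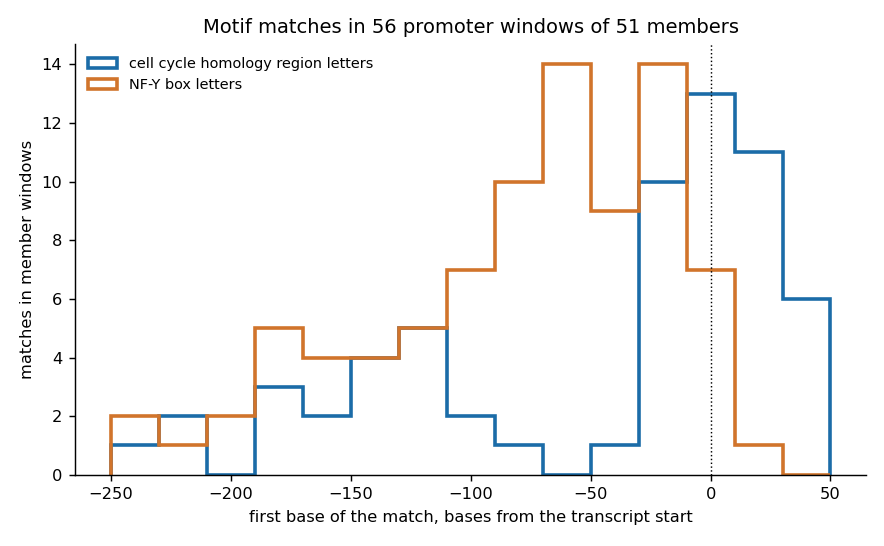
Places of the CHR letters (blue) and of the CCAAT box bound by NF-Y (orange) in the promoter windows of the mitosis and spindle genes, as the number of matches (y) against the distance of their first base from the transcript start in bases (x). CHR matches gather around the start, with a median first base at -12, and CCAAT matches lie upstream of it, with a median at -65. In the bars a TTCGAA match enters once for each strand, while the medians count each start position once.

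The following stretches show 100 bases before to 30 bases after the start, 5′ to 3′ on the gene's strand, with matches in capitals, CHR as TTTGAA or, on the opposite strand, as TTCAAA. The CCAAT box reads as ATTGG when it lies on the opposite strand. The first 4 are the genes with the most negative E12.5 minus E10.5 difference among those with a single start in the table, in the order of that difference: Plk4 (chr3:40799851-40799980, + strand), Ndc80 (chr17:71526828-71526957, - strand), Cenpe (chr3:135212463-135212592, + strand) and Kif20b (chr19:34922258-34922387, + strand).
Plk4: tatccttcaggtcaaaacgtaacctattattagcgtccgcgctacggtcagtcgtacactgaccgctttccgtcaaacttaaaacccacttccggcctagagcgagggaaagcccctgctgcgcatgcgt
Ndc80: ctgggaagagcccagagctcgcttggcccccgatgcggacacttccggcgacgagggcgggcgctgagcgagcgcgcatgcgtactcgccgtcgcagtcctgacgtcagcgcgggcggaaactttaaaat
Cenpe: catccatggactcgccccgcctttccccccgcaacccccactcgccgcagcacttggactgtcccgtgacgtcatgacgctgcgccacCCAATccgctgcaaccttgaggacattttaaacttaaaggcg
Kif20b: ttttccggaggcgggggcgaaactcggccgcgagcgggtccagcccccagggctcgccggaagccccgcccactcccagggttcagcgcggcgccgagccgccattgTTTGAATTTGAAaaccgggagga
The other 4 were chosen after the matches were seen, to show the arrangement of CHR next to the start with CCAAT upstream: Ccnb2 (chr9:70421525-70421654, - strand), Cdk1 (chr10:69352883-69353012, - strand), Hmmr (chr11:40733408-40733537, - strand) and Racgap1 (chr15:99651627-99651756, - strand).
Ccnb2: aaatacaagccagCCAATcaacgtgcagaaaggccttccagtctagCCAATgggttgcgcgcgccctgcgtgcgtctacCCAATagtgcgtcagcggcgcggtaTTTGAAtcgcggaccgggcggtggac
Cdk1: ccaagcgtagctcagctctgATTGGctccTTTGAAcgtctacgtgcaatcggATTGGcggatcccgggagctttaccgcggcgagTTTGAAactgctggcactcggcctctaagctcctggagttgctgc
Hmmr: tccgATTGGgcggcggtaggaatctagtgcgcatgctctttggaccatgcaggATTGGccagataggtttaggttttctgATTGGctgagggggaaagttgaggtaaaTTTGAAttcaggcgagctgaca
Racgap1: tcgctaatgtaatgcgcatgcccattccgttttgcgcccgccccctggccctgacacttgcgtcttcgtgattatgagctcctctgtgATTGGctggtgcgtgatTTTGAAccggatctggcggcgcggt
A match is a description of these letters and not a bound site, and no match says only that the letters are not in this stretch. The 4 genes with the largest differences did not share one arrangement. The Kif20b stretch held a pair of adjoining CHR matches, the Cenpe stretch a single CCAAT, and the Plk4 stretch neither element. The Ndc80 gene has a CHR match, TTCAAA, that begins at position 30, the last base printed, so its capitals are not seen in the stretch. Of the measured genes with a window, those with CHR letters (34 genes) had a median E12.5 minus E11.5 difference of -0.42 and those without (11 genes) of -0.44.

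The deposited values are log2 signals of 23332 clusters. Their medians ran from 5.33 to 5.73 by array. The replicate 1 array of E10.5 was the least like the others, with an average correlation across clusters of 0.890, against 0.948 to 0.955 for the other 5 arrays. A detection limit of 5.85 was taken from 841 clusters of chemosensory receptor genes (olfactory, vomeronasal, trace amine and taste), as the 95th percentile of their means over 6 arrays. Of the 53 members, 49 had a mean signal above it, and *Plk4*, *Cdc20*, *Kif22* and *Espl1* did not. The same percentile on each array by itself was 5.38, 5.38 and 5.40 on the replicate 2 arrays by stage, here and below with E10.5 first and E12.5 last, and 6.59, 6.18 and 6.55 on the replicate 1 arrays. By these limits 51, 51 and 50 members were above background on the replicate 2 arrays and 27, 38 and 29 on the replicate 1 arrays. The members were thus measured over a higher background on every replicate 1 array, and differences within replicate 1 are given with that in view. Levels of different genes are not compared, since each cluster has its own probes.

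On the replicate 2 arrays the members were highest early and lowest at E12.5. Their median log2 signal by stage was 7.72, 7.59 and 7.03, while the median of the 9821 clusters above the limit was 7.26, 7.25 and 7.20. On these arrays 38 of 53 members had their highest signal at E10.5 and 50 had their lowest at E12.5. On the replicate 1 arrays the median of the members was 6.60, 6.62 and 6.58, and that of clusters above the limit 6.93, 7.11 and 7.08. There the highest array was that of E10.5 for 25 members and that of E11.5 for 24, and E12.5 was lowest for 30. The course of the set thus differed between the replicate numbers. A low E12.5 array was plain in replicate 2, while in replicate 1 the median signal hardly changed by stage. Taken gene by gene in replicate 1, 37 of 53 members were lower at E12.5 than E10.5. Of all 23332 clusters 13915 were, and 4299 of the 9821 above the limit. Signals were lower at each step for 37 members on the replicate 2 arrays and for 18 on the replicate 1 arrays. The 13 that did so in both numbers were *Ccna2*, *Melk*, *Plk1*, *Plk4*, *Incenp*, *Mad2l1*, *Cenpa*, *Ndc80*, *Kif15*, *Hmmr*, *Anln*, *Smc2* and *Cdca5*. On the replicate 1 arrays *Ccna2*, *Mad2l1*, *Kif15* and *Smc2* were above the arrays' own limits at all 3 stages, *Ndc80* at 2 and *Cdca5* at 1, and the other 7 at 0, so that their order there was read from signals not above background. *Racgap1* was the 1 member higher at each step in both numbers, with an E10.5 replicate 1 signal below that array's own limit. With 1 array per stage within a replicate number, these courses have no spread and no test. No share over all clusters is given for the counts of highest, lowest and falling members, so they are not set against background.

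**Figure D2:**
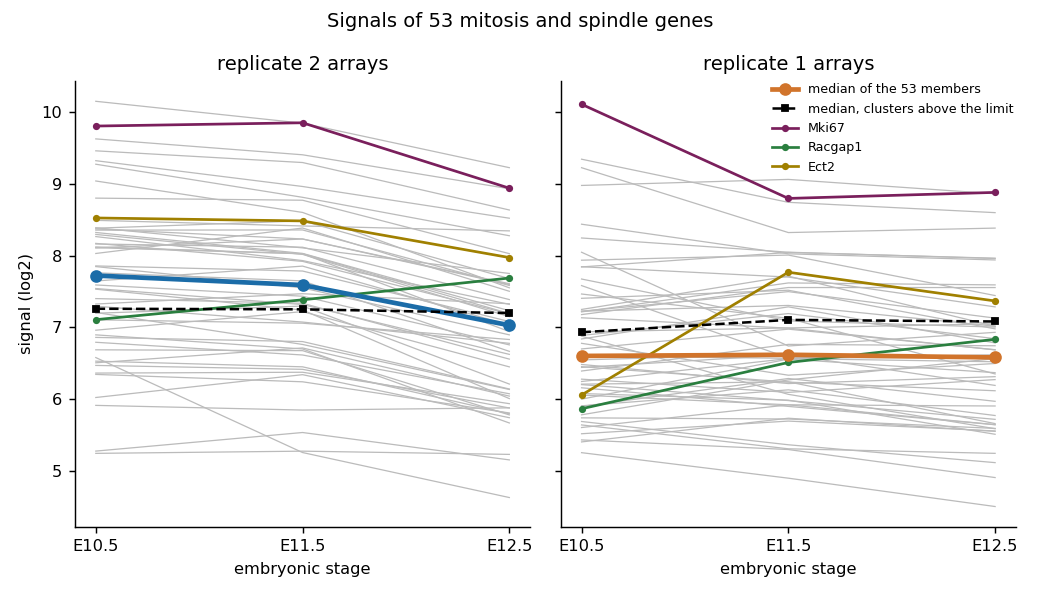
Log2 signal (y) of each of the 53 measured members (grey lines) at the 3 stages (x), on the replicate 2 arrays (left) and the replicate 1 arrays (right), with the median of the members (thick line), the median of the 9821 clusters above the detection limit (dashed) and 3 named genes. The median of the members went to 7.03 at E12.5 on the replicate 2 arrays and stayed between 6.58 and 6.62 on the replicate 1 arrays.

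Genes of mitotic entry were lower at E12.5 in both numbers for 6 of 7 measured members. The B-type cyclin bound to Cdk1 starts mitosis, and Cdc25 phosphatases switch that kinase on. *Ccna2*, which encodes the cyclin of S and G2 phase, had log2 signals of 9.32, 8.96 and 8.52 by stage on the replicate 2 arrays and of 8.25, 8.05 and 7.96 on the replicate 1 arrays. Each replicate number thus declined by stage, while the E12.5 and E10.5 arrays overlapped (E12.5 minus E10.5 -0.54, SE 0.49). *Melk*, a kinase of dividing cells and neural progenitors, had 6.69, 6.68 and 5.78 on the replicate 2 arrays and 6.20, 5.98 and 5.72 on the replicate 1 arrays. Both E12.5 arrays were below both arrays of each earlier stage. *Cdca3*, which promotes mitotic entry, had 7.11, 7.06 and 6.83 on the replicate 2 arrays and 6.21, 6.24 and 5.66 on the replicate 1 arrays, so that its replicate numbers lay further apart than its stages. The cyclin gene *Ccnb2* was lower at E12.5 than E10.5 by a like amount in both numbers, with differences of -0.51 on the replicate 2 arrays and -0.56 on the replicate 1 arrays. *Cdk1*, the kinase itself, differed by -1.07 on the replicate 2 arrays and by -0.13 on the replicate 1 arrays, where its signals were below the arrays' own limits. The phosphatase gene *Cdc25b* showed the opposite split, with -0.03 on the replicate 2 arrays and -1.29 on the replicate 1 arrays, and its relative *Cdc25c* had -0.92 and 0.07. The E12.5 replicate 1 signals of both genes, and the E10.5 replicate 1 signal of *Cdc25c*, were below those arrays' own limits.

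Of the 9 genes of mitotic kinases and the chromosomal passenger complex, 7 were lower at E12.5 than E10.5 in both numbers and 0 were higher in both. These kinases build the spindle poles and, in the passenger complex, correct the attachment of chromosomes to the spindle. *Plk4*, the kinase that starts centriole duplication, had 6.58, 5.26 and 4.63 on the replicate 2 arrays and 5.26, 4.90 and 4.51 on the replicate 1 arrays. It had the most negative E12.5 minus E10.5 difference of all members (-1.35, SE 0.46), but its mean signal lay below the detection limit and only the E10.5 replicate 2 array was above its own limit. *Birc5* (survivin), a subunit of the passenger complex, had 8.32, 8.03 and 7.23 on the replicate 2 arrays and 7.41, 7.52 and 6.98 on the replicate 1 arrays. Both E12.5 arrays were below all 4 earlier ones, with a difference from E10.5 of -0.76 (SE 0.40). *Nek2*, which separates the centrosomes, had 6.37, 6.38 and 5.94 on the replicate 2 arrays and 5.61, 5.92 and 5.65 on the replicate 1 arrays, and was near background in replicate 1. *Aurkb*, the kinase of the passenger complex, was highest at E11.5 in both numbers (7.85 in replicate 2 and 7.29 in replicate 1). *Aurka*, the kinase of the spindle poles, differed between E12.5 and E11.5 by -1.09 on the replicate 2 arrays and by 0.18 on the replicate 1 arrays, where its signals were below the arrays' own limits. *Plk1*, which acts from mitotic entry to cytokinesis, had E12.5 minus E10.5 differences of -0.73 on the replicate 2 arrays and -0.51 on the replicate 1 arrays.

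Of the 6 genes of the spindle checkpoint and its target Cdc20, 5 were lower at E12.5 than E10.5 in both numbers. The checkpoint holds back Cdc20, the activator of the anaphase promoting complex, until every chromosome is attached. *Mad2l1* (Mad2), which binds Cdc20, had 9.62, 9.40 and 8.93 on the replicate 2 arrays and 9.34, 8.74 and 8.60 on the replicate 1 arrays. Its E12.5 arrays were below both E10.5 arrays, by -0.69 in replicate 2 and by -0.74 in replicate 1. *Bub1*, a checkpoint kinase at kinetochores, had 9.04, 8.60 and 7.55 on the replicate 2 arrays and 7.25, 7.71 and 7.02 on the replicate 1 arrays. It was lower at E12.5 than at E11.5 in both numbers, but the E12.5 replicate 2 array was above the E10.5 replicate 1 array. *Bub3*, its binding partner, had 8.49, 8.41 and 8.34 on the replicate 2 arrays and 7.84, 8.04 and 7.96 on the replicate 1 arrays, with a difference between E12.5 and E10.5 of -0.01 (SE 0.36). *Bub1b* (BubR1) and *Ttk* (Mps1) had differences of -0.47 (SE 0.56) and -0.56 (SE 0.46). *Cdc20* lay below the detection limit, between 4.91 and 5.54 on the 6 arrays.

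Kinetochore genes differed in direction on the replicate 1 arrays, where some of the signals were not above background. Of 6 measured, 3 were lower at E12.5 than E10.5 in both numbers, while all 6 were lower in replicate 2. *Ndc80*, which holds the microtubule end at the kinetochore, had 8.11, 8.03 and 6.94 on the replicate 2 arrays and 7.47, 7.13 and 6.35 on the replicate 1 arrays. Both E12.5 arrays were below all earlier ones, by -1.17 against E10.5 in replicate 2 and by -1.11 in replicate 1. Its partners *Spc25* and *Nuf2* in the same complex did not share this in replicate 1. *Spc25* had 8.03, 8.38 and 7.50 on the replicate 2 arrays and 7.18, 7.56 and 7.56 on the replicate 1 arrays. *Nuf2* had 8.27, 7.93 and 7.32 on the replicate 2 arrays and 6.39, 6.76 and 6.75 on the replicate 1 arrays. *Cenpe*, the kinesin that moves chromosomes to the spindle equator, had 8.17, 7.92 and 7.19 on the replicate 2 arrays and 8.05, 6.74 and 6.93 on the replicate 1 arrays. It was lower at E12.5 by about the same amount in both numbers (-0.98 in replicate 2 and -1.11 in replicate 1), but over different days. *Cenpk*, of the inner kinetochore, had 6.51, 6.71 and 6.04 on the replicate 2 arrays and 5.78, 6.27 and 6.57 on the replicate 1 arrays, opposite directions in the replicate numbers. On the E10.5 replicate 1 array *Cenpk* and *Nuf2* were below that array's own limit of 6.59, so their higher later values there are read against a signal not above background. *Cenpa*, the histone variant of centromeres, differed by -0.54 in replicate 2 and -0.15 in replicate 1.

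The kinesins are motors that slide spindle microtubules apart and carry chromosomes and cytokinesis proteins. All 8 measured were lower at E12.5 than E10.5 on the replicate 2 arrays (median -0.77), and 3 on the replicate 1 arrays (median 0.03). *Kif11* (Eg5), which pushes the spindle poles apart, had 8.80, 8.77 and 8.03 on the replicate 2 arrays and 7.22, 7.62 and 7.59 on the replicate 1 arrays. *Kif15*, which can work beside it, was lower in both numbers, by -1.14 in replicate 2 and by -0.45 in replicate 1. The division motors were thus split in replicate 1. *Kif20b* had 7.76, 7.65 and 6.67 on the replicate 2 arrays and 7.58, 6.58 and 6.58 on the replicate 1 arrays, and its E12.5 arrays were below both E10.5 arrays. *Kif20a*, which brings the passenger complex to the spindle midzone, had 7.30, 7.08 and 6.78 on the replicate 2 arrays and 6.25, 6.57 and 6.52 on the replicate 1 arrays. *Kif23*, *Kif4*, *Kif2c* and *Kif22* had E12.5 minus E10.5 differences between -0.28 and -0.77 on the replicate 2 arrays and between -0.05 and 0.15 on the replicate 1 arrays. The replicate 1 signals of *Kif2c* and *Kif22* were below the arrays' own limits.

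Spindle microtubule proteins went the same way, with 5 of 5 lower at E12.5 than E10.5 on the replicate 2 arrays and 3 of 5 on the replicate 1 arrays. *Hmmr*, which helps to organise the spindle poles, had 6.90, 6.70 and 5.67 on the replicate 2 arrays and 5.69, 5.37 and 5.12 on the replicate 1 arrays. Its E12.5 arrays were below both E10.5 arrays, and all 3 of its replicate 1 values were below those arrays' own limits. *Nusap1*, which bundles spindle microtubules, had 8.38, 8.48 and 7.68 on the replicate 2 arrays and 7.67, 7.09 and 7.01 on the replicate 1 arrays. *Tpx2*, the activator of Aurora A on the spindle, had 8.37, 8.23 and 7.61 on the replicate 2 arrays and 6.94, 6.99 and 7.05 on the replicate 1 arrays. For *Nusap1* and *Tpx2* the lowest replicate 2 value, that of E12.5, was above or level with the highest replicate 1 value. *Aspm*, the spindle pole protein needed for symmetric division of neural progenitors, differed by -0.95 in replicate 2 and by 0.02 in replicate 1. *Prc1*, which crosslinks the spindle midzone, differed by -0.77 in replicate 2 and by -0.10 in replicate 1.

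The 3 cytokinesis genes went 3 ways. Racgap1 and Kif23 form centralspindlin at the midzone, which recruits Ect2, and Ect2 activates RhoA so that the contractile ring, with anillin, can close. *Anln* (anillin) had 7.53, 7.24 and 6.01 on the replicate 2 arrays and 6.08, 5.99 and 5.51 on the replicate 1 arrays. Its E12.5 arrays were below both E10.5 arrays (difference -1.04, SE 0.60), and its replicate 1 signals were below those arrays' own limits. *Ect2* had 8.52, 8.48 and 7.97 on the replicate 2 arrays and 6.06, 7.77 and 7.37 on the replicate 1 arrays. The E10.5 replicate 1 value stood 1.31 below the next lowest array, and it fixed the positive E12.5 minus E10.5 difference of 0.38 (SE 0.76), which was -0.85 without that array. That value was below the array's own limit of 6.59. *Racgap1* had 7.11, 7.38 and 7.69 on the replicate 2 arrays and 5.87, 6.51 and 6.83 on the replicate 1 arrays. It was higher at each step in both numbers, also with quantile normalized and with median-centred arrays, but its E12.5 and E10.5 arrays overlapped (difference 0.77, SE 0.54). Its E10.5 replicate 1 signal was below that array's own limit.

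Genes of chromosome structure and separation were lower at E12.5 than E10.5 in both numbers for 8 of 9 measured. Condensins (*Smc2*, *Smc4*, *Ncapd2*, *Ncaph*) compact chromosomes, topoisomerase II untangles them, and separase (*Espl1*), held back by securin (*Pttg1*), cuts the cohesin that joins sister chromatids. *Mki67*, the proliferation marker Ki-67 that coats mitotic chromosomes, had 9.80, 9.85 and 8.94 on the replicate 2 arrays and 10.11, 8.80 and 8.88 on the replicate 1 arrays. Its signal was lower after E11.5 in replicate 2 and after E10.5 in replicate 1. *Top2a* had 10.15, 9.84 and 9.22 on the replicate 2 arrays and 8.98, 9.06 and 8.86 on the replicate 1 arrays. *Smc4* (9.46, 9.30 and 8.64 in replicate 2, and 9.22, 8.32 and 8.38 in replicate 1) had its lower signals a day earlier in replicate 1, as did *Mki67*, *Cenpe* and *Kif20b*, which were singled out after their values were seen. *Smc2* was lower at each step in both numbers, with E12.5 minus E10.5 differences of -0.996 in replicate 2 and -0.50 in replicate 1. *Ncapd2* had 7.33, 7.47 and 7.33 on the replicate 2 arrays and 6.70, 6.98 and 6.69 on the replicate 1 arrays, nearly the same at E12.5 and E10.5, whereas its complex partner *Ncaph* differed by -0.93 in replicate 2 and by -0.21 in replicate 1. *Cdca5* (sororin), which protects cohesin, had 6.47, 6.42 and 5.88 on the replicate 2 arrays and 6.45, 6.24 and 6.12 on the replicate 1 arrays. *Pttg1* was lower at E12.5 than at both earlier stages on all arrays, with -0.64 against E10.5 in replicate 2 and -0.49 in replicate 1. *Espl1* lay between 5.23 and 5.64 and was above the limit of its own array on 0 of 6 arrays.

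Between E12.5 and E10.5, 50 of 53 members had a negative difference, and *Racgap1*, *Ect2* and *Cenpk* a positive one. The median was -0.47, against -0.10 over all clusters. By limma with Benjamini-Hochberg adjustment over all 23332 clusters, 0 members passed an adjusted p of 0.05, as did 0% of all clusters, and the smallest adjusted p of a member was 0.991. At an unadjusted two-sided p under 0.05, 5 members were lower, *Plk4* (-1.35), *Ndc80* (-1.14), *Cenpe* (-1.05), *Kif20b* (-1.05) and *Mki67* (-1.05), and 2.22% of all clusters were lower at that threshold. Both E12.5 arrays were below both E10.5 arrays for 22 of 53 members, against 14.0% of all clusters. The median within replicate numbers was -0.77 in replicate 2 and -0.21 in replicate 1, against -0.03 and -0.14 over all clusters. Clusters above the detection limit had -0.04 in replicate 2 and 0.10 in replicate 1. With median-centred arrays the replicate 1 median was -0.0081 (0.06 over all clusters), and with quantile normalized arrays -0.30 (-0.06 over all clusters). In both numbers 36 members were lower, against 35.0% of all clusters and 27.7% of clusters above the detection limit. The size of the median changed with the array left out. It was -0.04 without the E10.5 replicate 2 array and -0.95 without the E10.5 replicate 1 array. In the E10.5 replicate 2 array the mesenchyme gene *Postn* (8.08, against 3.60 to 5.33 on the other 5 arrays) and the muscle gene *Mstn* (7.75, against 3.43 to 6.07) also stood out. The median signal of the whole mesenchyme list on that array was 4.86, the highest of the replicate 2 arrays (4.4953 at E11.5 and 4.3654 at E12.5). It was below the 5.33 of the E10.5 replicate 1 array, which had a higher background. The lists as a whole did not share the rise of these 2 genes over E10.5 replicate 1. On the E10.5 replicate 2 array 4 of 13 measured mesenchyme genes and 1 of 7 muscle genes were higher than on E10.5 replicate 1. Of all 23332 clusters 8772 were. By mean signal over all 6 arrays, 2 of the 13 mesenchyme genes and 0 of the 7 muscle genes were above the limit. The part of mesenchyme or muscle cells in the differences was not tested. Fewer dividing cells and less RNA per dividing cell cannot be told apart in RNA of sorted populations. An exact permutation test of 2 arrays against 2 cannot give a p below 0.333.

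The days were then taken apart, in comparisons that share arrays with each other. From E10.5 to E11.5 the median difference of the members was -0.05 (-0.08 in replicate 2 and 0.03 in replicate 1), and 33 members were negative. The number lower in both numbers was 19 of 53, against 29.4% of all clusters, and both E11.5 arrays were below both E10.5 arrays for 2 members, *Cenpe* and *Cdca5*, against 9.90% of all clusters. In limma 0 members and 0% of clusters were called, the smallest adjusted p of a member was 1.0, and 0 members had an unadjusted p under 0.05. In replicate 1, 7 members were lower by more than 0.5 and 3 (*Ect2*, *Racgap1* and *Cdca8*) were higher by more than 0.5. The E10.5 replicate 1 signals of *Ect2*, *Racgap1* and *Cdca8* were below that array's own limit of 6.59. No share of all clusters at that cut is given, so the counts are not set against background. From E11.5 to E12.5, 52 of 53 members had a negative difference, *Racgap1* being the exception, with a median of -0.41 against -0.02 over all clusters. The direction was the same within both numbers, with a median of -0.65 in replicate 2 and -0.18 in replicate 1, against -0.04 and -0.00 over all clusters. The members lower in both numbers were 41 of 53, against 30.2% of all clusters and 31.9% of clusters above the detection limit. Both E12.5 arrays were below both E11.5 arrays for 15 members, among them *Ndc80*, *Birc5*, *Aurkb*, *Bub1*, *Plk1* and *Ccnb2*, against 13.4% of all clusters. The 27 members with the higher mean signals had medians of -0.73 in replicate 2 and -0.14 in replicate 1, and the other 26 had -0.63 and -0.19. No member passed in limma, nor did any other cluster (0%), the smallest adjusted p of a member was 1.0, and 0 members had an unadjusted p under 0.05. Standard errors of single members lay between 0.29 and 0.76. The median was -0.01 without the E11.5 replicate 2 array and -0.82 without the E11.5 replicate 1 array, where arrays of different replicate numbers are set against each other.

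**Figure D3:**
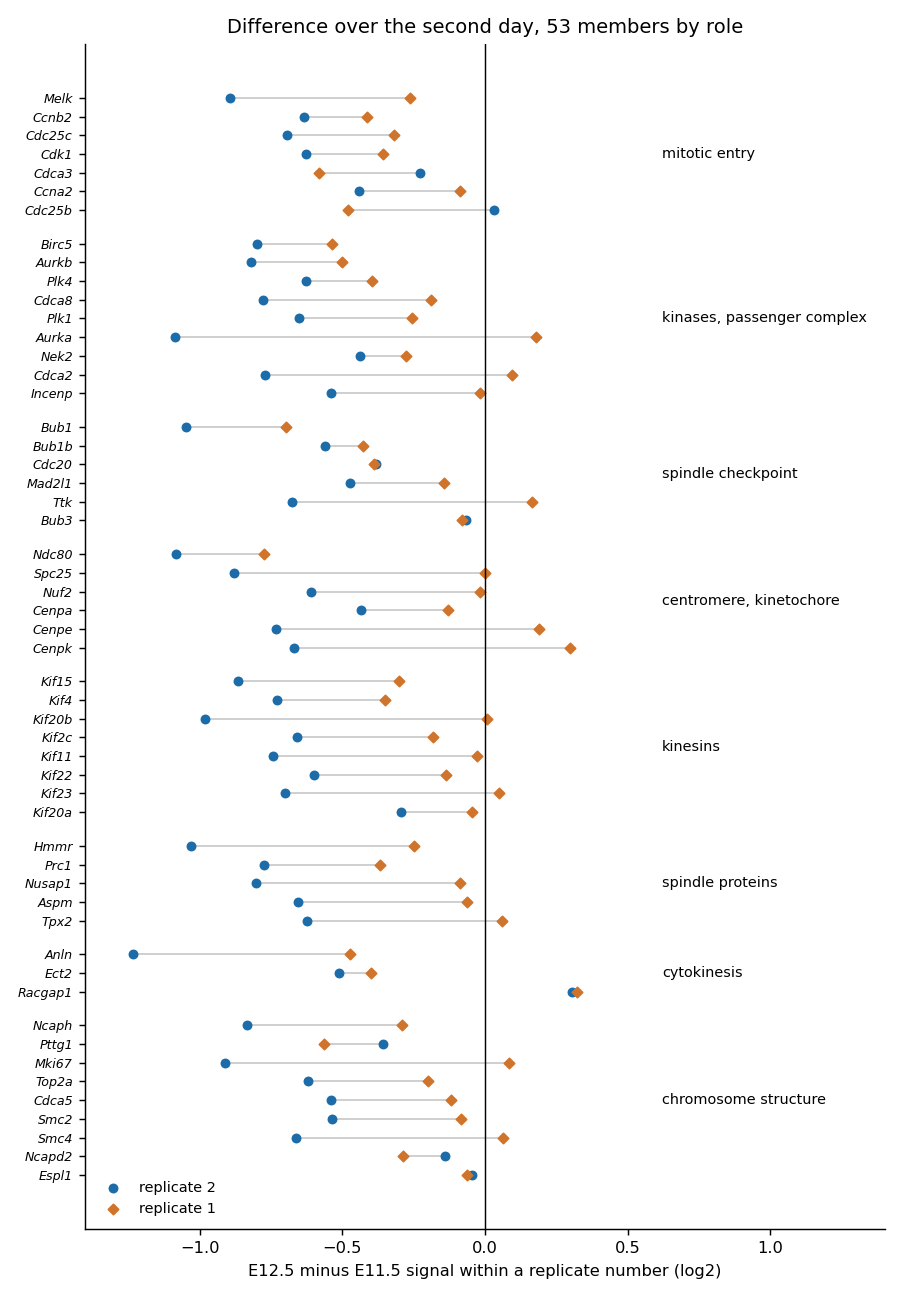
E12.5 minus E11.5 log2 signal (x) of the 53 measured members, grouped by role (y), within the replicate 2 arrays (blue circles) and within the replicate 1 arrays (orange diamonds), 1 array per stage. In 41 members both points lie below 0, in *Racgap1* both lie above 0, and the replicate 2 points are mostly the lower ones (medians -0.65 and -0.18).

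Replicate 2 was then set against replicate 1 at the same stage. Cell cycle genes were already known to differ between the replicate numbers, which is why the numbers were kept apart, so the values are a description with no test. Members were higher on the replicate 2 array at all 3 stages for 45 of 53, against 20.9% of all clusters and 41.7% of clusters above the detection limit. The median difference by stage, E10.5 to E12.5, was 0.85, 0.82 and 0.31, while clusters above the limit had 0.28, 0.11 and 0.13. The members thus exceeded these clusters at every stage, least at E12.5. In a limma fit with a mean per stage and a term for the replicate number, the largest differences were those of *Ect2* (1.26, SE 0.40), *Nuf2* (1.20, SE 0.28), *Cdc25c* (1.11, SE 0.24), *Tpx2* (1.08, SE 0.23) and *Bub1* (1.07, SE 0.28). The smallest were those of *Cdc25b* (-0.30, SE 0.28), *Espl1* (-0.15, SE 0.18) and *Cdca5* (-0.01, SE 0.18), and *Mki67* had 0.27 (SE 0.30). By role, the medians were 1.07 for cytokinesis, 0.92 for spindle microtubule proteins, 0.90 for kinesins, 0.76 for mitotic entry, 0.59 for the checkpoint, 0.54 for the kinases, 0.53 for the kinetochore and 0.49 for chromosome structure. The background of the receptor clusters ran the other way, lower on the replicate 2 arrays, as did the median over all clusters (-0.29, -0.08 and -0.14 by stage). The part of that background in the replicate difference was not tested.

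**Figure D4:**
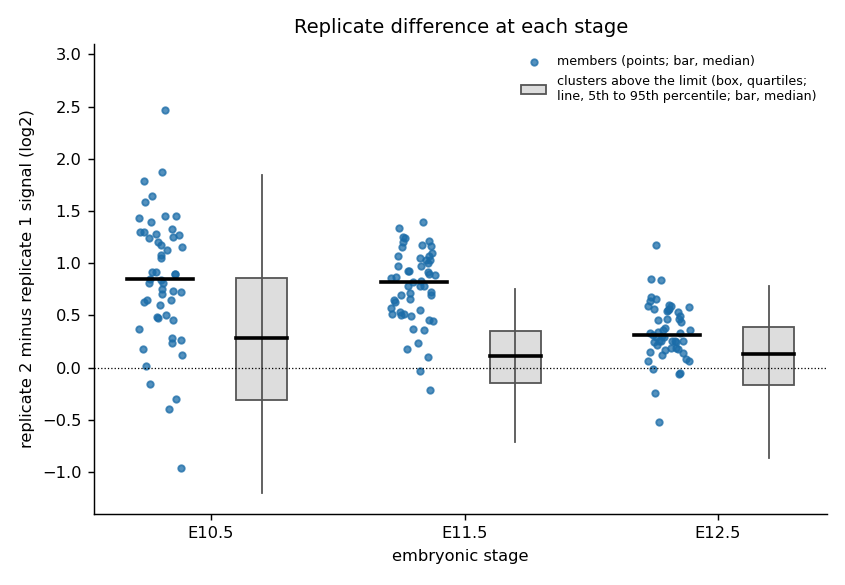
Replicate 2 minus replicate 1 log2 signal (y) at each stage (x) for the 53 members (points, with the median as a bar) and for the 9821 clusters above the detection limit (box for quartiles, line for the 5th to 95th percentile, bar for the median). The medians of the members are 0.85, 0.82 and 0.31, and those of the clusters 0.28, 0.11 and 0.13.

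Other genes of the division cycle were set beside the members. A further list of 61 mitosis genes, such as kinetochore and spindle components, had 49 measured, of which 30 were lower at E12.5 than E10.5 in both numbers, with medians of -0.84 in replicate 2 and -0.18 in replicate 1. Its extremes were *Spc24*, the remaining subunit of the Ndc80 complex (-1.14, both E12.5 arrays below all earlier ones, as for *Ndc80*), and *Zwint*, a kinetochore protein (0.82). DNA replication genes (26 of 28 measured) had -0.91 in replicate 2 and 0.11 in replicate 1, and 9 were lower in both numbers. Over the second day 22 of these 26 were lower in both numbers. The list ran between *Gmnn* (geminin, which blocks a second round of replication, -0.83) and *Rfc3* (clamp loader, 0.41). The subunits of the anaphase promoting complex, which stay in use in neurons, had medians of -0.15 in replicate 2 and 0.21 in replicate 1, with 1 of 12 measured lower in both, between *Cdc27* (-0.24) and *Cdc23* (0.54). The MuvB and B-Myb regulators of mitotic transcription (9 of 11 measured) had -0.35 and 0.09, with 2 lower in both, between *Lin9* (-0.30) and *Lin37* (0.24). In limma 0 genes of these 4 lists were called, as 0% of all clusters were. At an unadjusted p under 0.05 for E12.5 minus E10.5 the further mitosis list had 4 of 49 genes lower and 1 higher, and the other lists 0. Of all 23332 clusters 517 (2.22%) were lower and 411 higher at that threshold.

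Marker lists were used to check which cells the sorted populations held. Of the neural progenitor markers 14 of 17 measured were above the detection limit, and of the postmitotic neuron markers 14 of 15, so both classes were present beside the mitotic genes. Progenitor markers had E12.5 minus E10.5 medians of -0.19 in replicate 2 and -0.40 in replicate 1, and 11 of 17 were lower in both numbers, the list running between *Olig3* (-1.15) and *Pax3* (0.49), both dorsal progenitor factors. Postmitotic neuron markers had 0.73 in replicate 2 and 0.39 in replicate 1, and 12 of 15 were higher in both numbers, between *Nefm* (neurofilament, -0.68) and *Syt1* (synaptic vesicle calcium sensor, 1.51). The medians of the progenitor list were thus negative, as were those of the members, and the medians of the neuron list positive. The part of the cell mixture in the differences of the members was not tested. Neural crest and Schwann precursor markers (8 measured, 5 above the limit) had -0.49 and -0.25, between *Cdh6* (-1.25) and *Tfap2a* (0.80, also a gene of dorsal neurons). Dorsal root ganglion markers (8 measured, 4 above the limit) had 0.04 and -0.43, between *Neurod1* (-0.93) and *Ntrk2* (0.94). Endothelium, muscle, and motor neuron with floor plate markers had 0 genes above the limit, of 10, 7 and 7 measured. Their medians were -0.02, -0.10 and -0.08 in replicate 2 and -0.33, -0.66 and -0.58 in replicate 1. All clusters had -0.03 in replicate 2 and -0.14 in replicate 1. A negative replicate 1 median, as in the progenitor list, was thus also seen in lists at background. Microglia and macrophage markers had 2 of 10 and red blood cell markers 2 of 5 above it. The progenitor and neuron lists had replicate 2 minus replicate 1 medians of 0.10 and 0.17, beside 0.60 for the members. The difference between these lists was not tested.

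**Figure D5:**
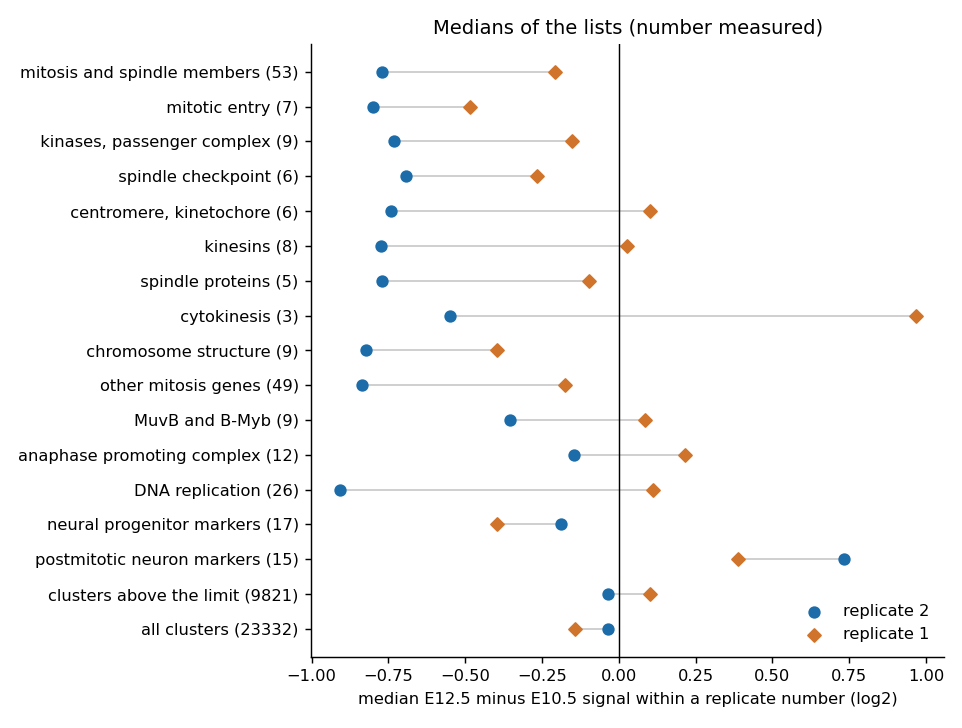
Median E12.5 minus E10.5 log2 signal (x) within the replicate 2 arrays (blue circles) and within the replicate 1 arrays (orange diamonds) for the members, their 8 roles and other lists (y, number measured in parentheses). The members lie at -0.77 and -0.21, postmitotic neuron markers at 0.73 and 0.39, and all clusters at -0.03 and -0.14.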

How the data were processed

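RNA of GFP+ cells was measured on Affymetrix GeneChip Mouse Exon 1.0 ST arrays. The authors deposited log2 signals per transcript cluster; the submitters' processing notes name oligo, with no version, and the mm9 build, and the normalization method is not given in the sources used here. The values were used as deposited. Of 23332 clusters, 14996 have 1 symbol in the platform's table, 1019 have several and 7317 are not listed. Differences between stages come from limma 3.58.1 in R 4.3.3 (lmFit and eBayes, a mean per stage over all 6 arrays, Benjamini-Hochberg over all clusters, called at an adjusted p under 0.05). The replicate number was fitted as a term beside the stage. The fits were run on simulated data with independent noise of a smaller spread than that of the members here. That checks the code and not whether such fits can find changes in these arrays. Tables and figures were made in Python 3.11.15 with pandas 2.3.3 and matplotlib 3.10.9. Promoter windows are RefSeq's on GRCm38.p6, and no coordinates of the arrays' build are given.

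The members and lists were chosen with earlier results of these data known, so their medians and counts are descriptions beside those of all clusters, with no test of a list. Genes were named by rule: in each of the 8 roles the member with the highest mean signal, the most negative and the most positive E12.5 minus E10.5 difference, the 5 largest and 3 smallest replicate differences, and the extremes of each other list. The mesenchyme list ran between *Postn* (-2.92) and *Pdgfra* (0.31), the muscle list between *Mstn* (-2.62) and *Des* (-0.01), the endothelium list between *Tie1* (-0.23) and *Cldn5* (0.04), the microglia list between *Cx3cr1* (-1.00) and *C1qb* (0.02), the red blood cell list between *Hbb-y* (-0.59) and *Alas2* (0.28), and the motor neuron list between *Mnx1* (-0.70) and *Slc18a3* (0.43). Values of other members were given after they were seen. Alternatives were a replicate block, 2 other moderations, quantile normalization, median centring, tests over clusters with a mean above 5.85 or over those naming 1 gene, fits of the 2 stages in question, the mean of a gene's clusters, and each array left out. The block among clusters naming 1 gene was added after the data were seen.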

Additional observations from a re-analysis of the deposited data

Results flagged for a closer look

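A pair of genes of the set were measured only in clusters that the comparisons above do not use, and both had mean signals above the detection limit of 5.85. The cluster listed as *Foxm1* together with *Tex52* had a mean signal of 7.48. Foxm1 is the transcription factor that activates mitotic genes in G2. The signals were 8.21, 7.88 and 7.26 from E10.5 to E12.5 on the replicate 2 arrays and 7.52, 7.17 and 6.88 on the replicate 1 arrays, lower at each step in both numbers (E12.5 minus E10.5 -0.79). Which of the 2 genes gave the signal was not tested. The cluster listed with 2 entries for *Kif18b*, a kinesin that shortens spindle microtubules, had a mean signal of 6.07. Its signals were 6.39, 6.33 and 5.91 on the replicate 2 arrays and 6.13, 5.93 and 5.69 on the replicate 1 arrays (E12.5 minus E10.5 -0.46).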

How the results depend on the processing

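The direction of the members' median was negative for E12.5 minus E10.5 and for E12.5 minus E11.5, and positive for the replicate difference, with each array left out (-0.95 to -0.04, -0.82 to -0.01, and 0.57 to 0.81) and after quantile normalization (-0.40, -0.37 and 0.58) and median centring (-0.33, -0.37 and 0.83). The E11.5 minus E10.5 median ran from -0.51 to 0.42 with an array left out (0.35 without E11.5 replicate 1) and was 0.0383 after median centring, and within replicate 1 it was -0.0937 after quantile normalization. No alternative called a member between stages. With an array left out, 0 to 325 clusters were called for E12.5 minus E10.5 and 0 to 250 for E11.5 minus E10.5 (both highest without E10.5 replicate 2), and 0 to 434 for the replicate difference. The 14996 clusters naming 1 gene gave 221 calls for the replicate difference, 3 of them among the 53 members. Cell cycle genes were already known to differ between the replicate numbers, which is why the numbers were kept apart. Calls and unadjusted p counts for the replicate difference, here and below, thus do not test it. Members with an unadjusted p under 0.05 numbered 10 (E12.5 minus E10.5, all lower, against 2.46% of all clusters) and 2 (E12.5 minus E11.5, both lower, against 0.716%) after quantile normalization. They numbered 0 (E12.5 minus E10.5, 1.65% of clusters lower) after median centring. With the 2 compared stages alone 1 member had such a p for E12.5 minus E11.5, against 362 clusters lower and 198 higher of all 23332. With an array left out they numbered 0 to 16, 0 to 2 and 0 to 1 for E12.5 minus E10.5, E11.5 minus E10.5 and E12.5 minus E11.5, and 20 to 30 for the replicate difference (33 with all arrays), which was known beforehand. Members with both later arrays below both earlier ones numbered 9 of 53 (E12.5 minus E10.5), 1 (E11.5 minus E10.5) and 5 (E12.5 minus E11.5) after median centring, against 2449, 2240 and 2440 of all 23332 clusters, and 7 (E11.5 minus E10.5) after quantile normalization, against 12.7%. The 90th percentile put the detection limit at 5.27, with 52 members above it. The causes were not tested.

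What same-numbered arrays share is not given. The main fits between stages did not take the numbers as pairs, whereas the differences within replicate numbers subtract same-numbered arrays. The replicate differences of the stages correlated across clusters with r of 0.468 (E12.5 with E10.5), 0.455 (E11.5 with E10.5) and 0.484 (E12.5 with E11.5). With the replicate block 0 clusters were called in each stage comparison, and 18 members (E12.5 minus E10.5, 17 of them lower), 0 (E11.5 minus E10.5) and 5 (E12.5 minus E11.5, all lower) had an unadjusted p under 0.05, against 4.88%, 3.01% and 1.58% of all clusters lower. The block among clusters naming 1 gene, chosen after seeing the data, called 27 clusters and 0 members for E12.5 minus E10.5, with 22 (21 lower), 2 and 11 members (all lower) at an unadjusted p under 0.05 in the 3 comparisons, against 5.12%, 2.63% and 1.23% of its clusters lower.

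Of the named genes, E12.5 minus E10.5 changed sign with an array left out for *Cdc25c* (-1.24 to 0.40), *Cdca3* (-0.997 to 0.17), *Nek2* (-0.57 to 0.19), *Bub1* (-1.75 to 0.0342), *Bub3* (-0.34 to 0.31), *Cenpk* (-0.20 to 0.52), *Nuf2* (-1.23 to 0.64), *Spc25* (-0.50 to 0.35), *Kif11* (-0.99 to 0.59), *Kif20a* (-0.64 to 0.40), *Tpx2* (-1.04 to 0.39), *Ect2* (-0.85 to 1.61) and *Ncapd2* (-0.32 to 0.32). All but *Cenpk* and *Ect2* did so without E10.5 replicate 2. After median centring it was 0.12 for *Bub3*, 0.0587 for *Spc25*, 0.0125 for *Kif20a* and 0.13 for *Ncapd2*. The replicate difference ran from -0.59 to 0.0358 for *Cdc25b* and from -0.11 to 0.10 for *Cdca5* with an array left out. After quantile normalization it was 0.11 for *Espl1* and 0.0053 for *Cdca5*, and after median centring 0.0827 and 0.22. Precision is limited by having 2 arrays per stage.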
